A study of Arabidopsis thaliana with 12 samples.

Results

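The JAZ (jasmonate ZIM-domain) proteins are the repressors that hold jasmonate signalling off in Arabidopsis. The 10 genes described here are JAZ1 (AT1G19180), JAZ2 (AT1G74950), JAZ3 (AT3G17860), JAZ5 (AT1G17380), JAZ6 (AT1G72450), JAZ7 (AT2G34600), JAZ8 (AT1G30135), JAZ9 (AT1G70700), JAZ10 (AT5G13220) and JAZ12 (AT5G20900). They were taken by their gene identifiers, from a list made with earlier results of these data known, and all 10 were among the 27371 genes of the deposited table. JAZ4, JAZ11 and AT3G22275, which is annotated as another JAZ protein, are not in the list. JAZ11 was not called in any comparison. JAZ4 and AT3G22275 were below the filter on low values, so they could not be called, and were read from a fit without it. Their fitted changes are also held small, because 1 FPKM was added to each value before the logarithm. The missing calls of JAZ4 and AT3G22275 therefore do not show unchanged transcripts. RNA of whole seedlings of accession Columbia-0, 14 d old, was sequenced in 4 groups of 3 libraries, labelled Atg3bp1 hrcC, Atg3bp1 mock, WT hrcC and WT mock. The hrcC groups had been sprayed with Pst hrcC-, a strain of Pseudomonas syringae pv. tomato DC3000 without a working type III secretion system, 24 h before sampling, and the mock groups were treated without bacteria. By the methods of the study, the mutant groups come from a single T-DNA insertion line, Atg3bp1-1, in AtG3BP1, whose human counterpart G3BP1 is a stress granule protein. The comparisons ask how seedlings of each genotype responded to the bacterium and whether the genotypes differed with and without it.

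Levels are given in FPKM, a fragment density scaled to transcript length and to the mapped total of the library, which allows levels to be compared between genes. Between libraries the deposited values were not fully on 1 scale, and for the tests they were divided by upper-quartile factors of 0.866 to 1.199. The 3 highest factors were all in WT, in hrcC replicate 1 (1.199) and in mock replicates 2 (1.11) and 3 (1.15). No Atg3bp1 library had a factor above 1.003. The high factors were thus unevenly spread over the labels and over the WT treatments. No read counts were used, so the depth behind each value is unknown. Library totals lay between 428556 and 494126 FPKM, and a single locus, AT2G01021, took 5.73% to 31.6% of that sum in Atg3bp1 hrcC, 11.4% to 12.6% in Atg3bp1 mock, 6.88% to 8.51% in WT hrcC and 4.03% to 8.33% in WT mock. It was above 20% in replicates 2 and 3 of Atg3bp1 hrcC. Within the WT groups, replicate 1 stood apart, with correlations across genes of 0.891 and 0.924 with the other WT hrcC libraries and 0.904 and 0.914 with the other WT mock libraries, against 0.948 to 0.970 within the Atg3bp1 groups. The AtG3BP1 gene itself went against the genotype labels, with 11.4 to 18.4 FPKM in the 6 libraries labelled Atg3bp1 and 0.0179 to 0.426 FPKM in the 6 labelled WT. In what follows, Atg3bp1 and WT therefore name the labels of the libraries, and every direction between genotypes rests on those labels. Shoot, root and guard cell markers, 8 of 8, passed the filter on low values, and the 4 flower and seed markers did not. The flower marker AP3 was at 0.121 FPKM or less. The other flower marker, PI, was at 1.25 FPKM in WT hrcC replicate 1 and 1.37 FPKM in WT mock replicate 2. Elsewhere PI was at 0.423 FPKM or less. The seed markers CRA1 and SESA1 were at most at 0.231 and 0.506 FPKM. No marker was called after treatment. The shoot marker RBCS1A, a Rubisco small subunit gene, was at 6586 to 9330 FPKM in the 6 hrcC libraries and 9427 to 16318 FPKM in the 6 mock libraries. These ranges of deposited FPKM did not overlap, but after scaling they did. The summed level of the 3 shoot markers was 17059 to 26095 FPKM in hrcC libraries and 21268 to 32507 FPKM in mock libraries, that of the root markers was 8.02 to 17.6 FPKM in hrcC libraries and 12.8 to 33.5 FPKM in mock libraries, and that of the guard cell markers was 4.83 to 10.9 FPKM in hrcC libraries and 8.02 to 18.2 FPKM in mock libraries. Their part in the JAZ values was not tested, and in RNA of whole seedlings a change in the number of cells of a type and a change in RNA per cell cannot be told apart.

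JAZ proteins bind the transcription factor MYC2 and its relatives and, through the adaptor NINJA, bring the co-repressor TOPLESS (TPL) to jasmonate-responsive promoters. The bioactive hormone, jasmonoyl-isoleucine, joins a JAZ protein to the F-box receptor COI1, after which the JAZ protein is ubiquitinated and degraded and MYC2 is released. Coronatine, a toxin made by strains of Pseudomonas syringae, binds the same receptor. Several JAZ genes are themselves targets of MYC2, which is known as the negative feedback of the pathway. JAZ7 and JAZ8 carry an EAR repression motif of their own and lack the usual degron, JAZ8 resists jasmonate-dependent degradation, and JAZ10 gives rise to splice forms that also resist it.

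By the TAIR10.1 annotation of RefSeq, 6 of the 10 genes lie on chromosome 1, JAZ7 on chromosome 2, JAZ3 on chromosome 3, and JAZ10 and JAZ12 on chromosome 5. On chromosome 1, JAZ5 spans bases 5955155 to 5957511, JAZ1 6621777 to 6623668, JAZ8 10596352 to 10597341, JAZ9 26654529 to 26657350, JAZ6 27273968 to 27276562 and JAZ2 28148574 to 28150446. JAZ7 spans bases 14573030 to 14573952 of chromosome 2 and JAZ3 spans 6119707 to 6123044 of chromosome 3. On chromosome 5, JAZ10 spans 4218786 to 4221077 and JAZ12 spans 7090704 to 7092539. JAZ2, JAZ5 and JAZ6 lie on the minus strand and the other 7 on the plus strand. The coding sequences, translated from the annotation, gave proteins of 131 residues (JAZ8) to 352 residues (JAZ3), the longest coding transcript being used for each gene. The closest pairs were JAZ1 and JAZ2, identical at 65.1% of the residues of the shorter protein, JAZ7 and JAZ8 (61.8%), JAZ5 and JAZ6 (56.1%), and JAZ3 and JAZ9 (36.6%). JAZ10 was closest to JAZ9 (31.1%) and JAZ12 to JAZ1 (31.6%). The annotated JAZ10 gene overlaps AT5G02045, and JAZ12 overlaps AT5G03235 and AT5G20910. All 3 lie on the opposite strand. The libraries were made with a stranded kit, but whether the counting used strand is not given in the sources used here, so reads of JAZ10 and JAZ12 may not be separated from those of these genes.

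The members moved together, so the 300 bases before each annotated gene start were read for CACGTG, the G-box, and AACGTG, a related hexamer. MYC2 is known to bind both. Both strands were searched, CACGTG being its own reverse complement and AACGTG reading CACGTT on the other strand, and no match of the first overlapped a match of the second in these 10 windows. CACGTG was found in 4 of the 10 windows (JAZ2, JAZ3, JAZ7 and JAZ8) and in 7.09% of the windows of all 27443 coding genes. AACGTG was found in 4 of the 10 (JAZ3, JAZ5, JAZ6 and JAZ12) and in 8.71% of all. Either was present in 7 of the 10 and in 15.0% of all, and neither occurred in the windows of JAZ1, JAZ9 and JAZ10. The last 160 bases are shown for the 4 genes with CACGTG and for the 2 others with AACGTG inside that stretch, because these letters are shared by members whose levels differed widely in mock. Each runs 5′ to 3′ towards the gene start on the gene's strand, in TAIR10.1 coordinates, with both hexamers in capitals.
JAZ2, chr1:28150447-28150606, minus strand: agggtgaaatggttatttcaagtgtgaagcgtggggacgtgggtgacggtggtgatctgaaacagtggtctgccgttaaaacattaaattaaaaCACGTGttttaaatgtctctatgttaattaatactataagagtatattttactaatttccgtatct
JAZ3, chr3:6119547-6119706, plus strand: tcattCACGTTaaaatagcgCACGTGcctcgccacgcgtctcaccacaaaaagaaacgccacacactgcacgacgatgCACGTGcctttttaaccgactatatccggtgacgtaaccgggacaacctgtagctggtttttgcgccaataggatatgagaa
JAZ7, chr2:14572870-14573029, plus strand: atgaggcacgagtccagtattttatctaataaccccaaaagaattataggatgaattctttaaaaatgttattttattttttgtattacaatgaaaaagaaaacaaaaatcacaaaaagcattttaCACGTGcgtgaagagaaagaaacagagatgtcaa
JAZ8, chr1:10596192-10596351, plus strand: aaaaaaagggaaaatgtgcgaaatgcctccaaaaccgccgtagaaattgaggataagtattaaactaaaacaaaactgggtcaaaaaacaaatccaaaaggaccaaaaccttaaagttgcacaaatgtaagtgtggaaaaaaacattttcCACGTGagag
JAZ6, chr1:27276563-27276722, minus strand: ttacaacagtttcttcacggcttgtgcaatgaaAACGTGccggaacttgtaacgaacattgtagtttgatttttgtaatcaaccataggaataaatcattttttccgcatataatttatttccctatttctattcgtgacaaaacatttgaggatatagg
JAZ12, chr5:7090544-7090703, plus strand: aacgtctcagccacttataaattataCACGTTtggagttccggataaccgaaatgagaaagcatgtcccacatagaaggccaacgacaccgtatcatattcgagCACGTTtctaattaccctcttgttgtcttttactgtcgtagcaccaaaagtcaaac
The first base of CACGTG lay 66 bases before the start of JAZ2, 140 and 82 before JAZ3, 34 before JAZ7 and 10 before JAZ8. AACGTG began 155 bases before JAZ3, 218 before JAZ5 (outside the stretch shown), 127 before JAZ6, and 134 and 56 before JAZ12. These matches describe the letters of the windows only.

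After Pst hrcC-, the JAZ transcripts rose in seedlings of both labels. In Atg3bp1, 10 of 10 members were called higher, where 441 of the 17158 genes tested were called higher (2.57%) and 95 were called lower (0.554%). In WT, 9 of 10 were called higher, where 492 were called higher among all genes (2.87%) and 55 lower (0.321%). A gene was called with a limma adjusted p of at most 0.05 over all genes tested and a change of at least 2-fold, taken on the scale of log2(FPKM + 1) after each library was scaled to a common upper quartile. The member that was not called in WT was JAZ12, which missed the fold threshold and not the adjusted p. The members' median log2 fold change was 2.66 in Atg3bp1 and 2.84 in WT, beside medians of -0.07 and -0.06 over all genes tested. For each of the 10 members, all 6 hrcC libraries lay above all 6 mock libraries, which held for 3.41% of the genes tested. Summed over the 10 genes, the FPKM were 273 ± 31.5 in Atg3bp1 hrcC, against 42.5 ± 3.79 in Atg3bp1 mock (SD, n = 3 each), a ratio of 6.42, and 307 ± 49.6 in WT hrcC, against 49.2 ± 8.92 in WT mock (SD, n = 3 each), a ratio of 6.23.

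**Figure D1:**
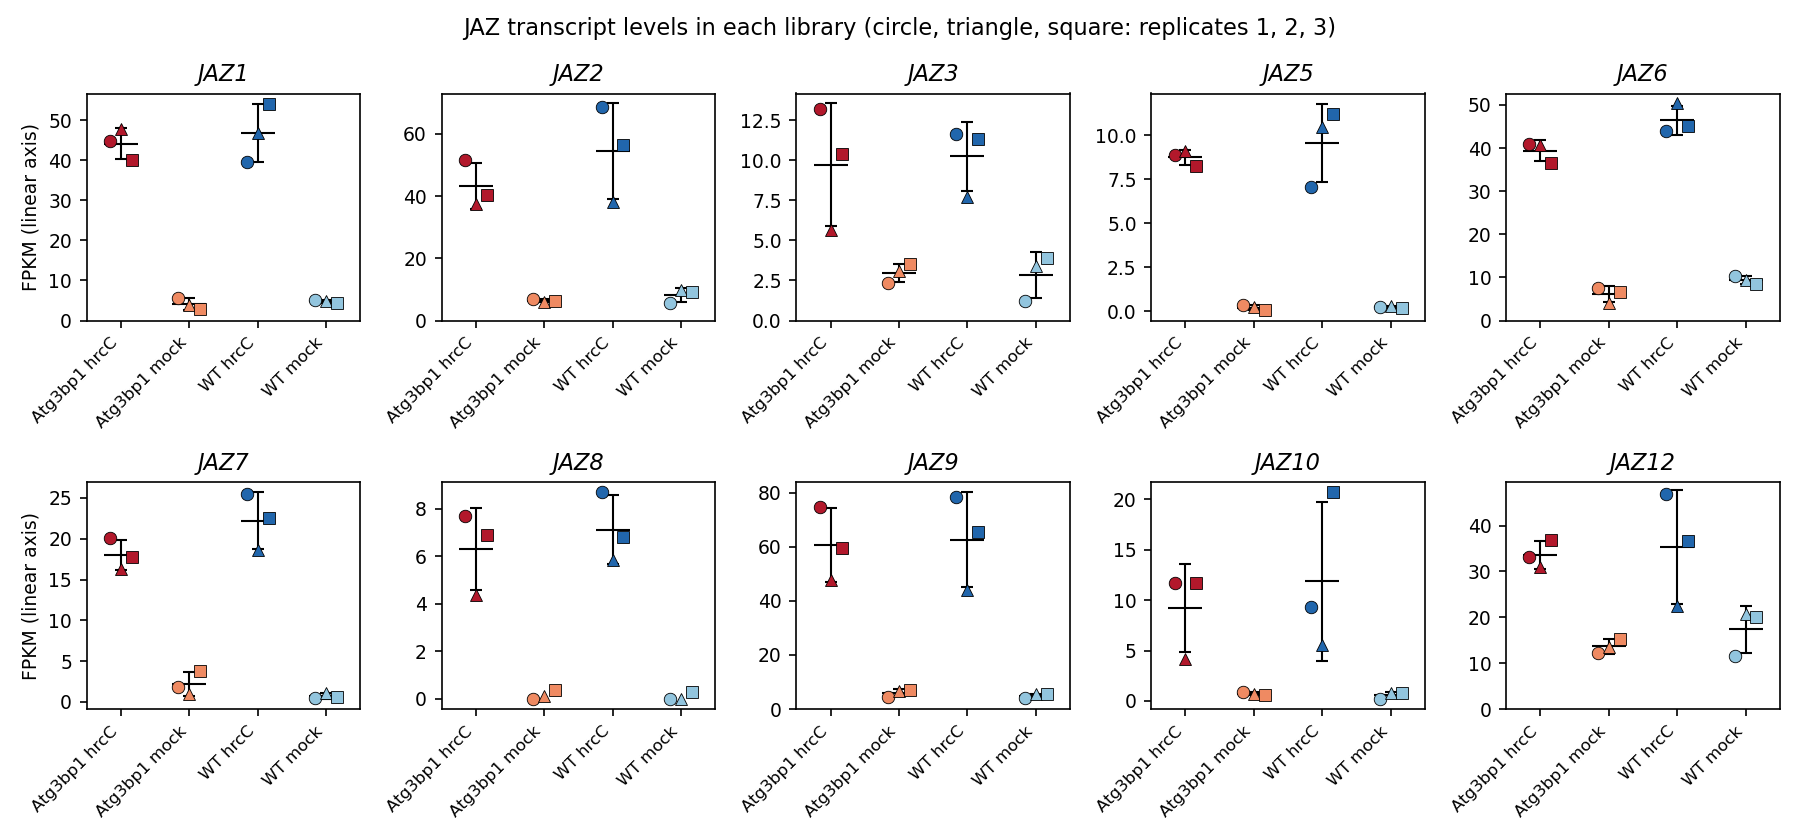
FPKM of each JAZ gene (linear vertical axis, separate for each panel) in the 3 libraries of each group, with the group mean as a horizontal line and the SD as a bar (left out for JAZ8 in mock, where libraries are listed at 0). For every gene the hrcC libraries lie above the mock libraries of both labels, and JAZ12 is the member with the highest level in mock, 11.5 to 20.7 FPKM.

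All 10 members passed the filter on low values, an average of 1 FPKM or more over the 12 libraries, but JAZ5, JAZ8 and JAZ10 averaged 0.234, 0.123 and 0.653 FPKM over the mock libraries and passed through the treated groups alone. The pseudocount of 1 FPKM makes the fitted fold changes of these genes smaller than the ratios of their mean FPKM. In a fit with no filter, the same 10 members in Atg3bp1 and the same 9 in WT met both thresholds.

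JAZ1 and JAZ2 form the closest pair by sequence. JAZ1, which is also known to bind the DELLA growth repressors, stood at 44.7, 47.7 and 40.0 FPKM in Atg3bp1 hrcC (replicates 1, 2 and 3) and 5.69, 3.82 and 2.86 FPKM in Atg3bp1 mock, and at 39.5, 46.7 and 54.1 FPKM in WT hrcC, against 5.18, 4.83 and 4.44 FPKM in WT mock. No hrcC library of either label came near a mock library. Its log2 fold change was 3.22 (SE 0.23, limma adjusted p = 4.73e-06) in Atg3bp1 and 3.02 (SE 0.23, adjusted p = 7.15e-06) in WT, the 50th and 65th largest of the 17158 genes. JAZ2, known for its part in stomatal movement during bacterial entry, had 51.6, 37.6 and 40.5 FPKM in Atg3bp1 hrcC, against 6.78, 5.96 and 6.37 FPKM in Atg3bp1 mock. In WT it was at 68.6, 38.1 and 56.6 FPKM in the hrcC group and 5.59, 9.69 and 9.05 FPKM in mock. The WT hrcC libraries were thus more spread than the others, with replicate 2 the lowest. JAZ2 changed by 2.61 (SE 0.20, adjusted p = 9.02e-06) in Atg3bp1 and 2.60 (SE 0.20, adjusted p = 7.57e-06) in WT on the log2 scale. The ratio of JAZ1 to JAZ2 FPKM ran from 0.575 to 1.27 over the hrcC libraries and from 0.449 to 0.926 over the mock libraries, and the 2 ranges overlap.

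JAZ5 and JAZ6 rose to very different levels. JAZ6 had 41.0, 40.7 and 36.6 FPKM in Atg3bp1 hrcC, against 7.61, 4.07 and 6.68 FPKM in Atg3bp1 mock, and 44.0, 50.3 and 45.1 FPKM in WT hrcC, against 10.4, 9.36 and 8.42 FPKM in WT mock. It was among the more abundant members before and after treatment. Its log2 fold change was 2.58 (SE 0.23, adjusted p = 3.5e-05) in Atg3bp1 and 2.19 (SE 0.23, adjusted p = 0.000129) in WT. JAZ5 was at 8.86, 9.12 and 8.28 FPKM in Atg3bp1 hrcC, against 0.344, 0.236 and 0.0695 FPKM in Atg3bp1 mock. In WT it was at 7.06, 10.5 and 11.2 FPKM in the hrcC group and 0.261, 0.284 and 0.211 FPKM in mock. It was thus near the lower end of the FPKM scale in all 6 mock libraries and clearly above it in all 6 treated ones. The ratio of its mean FPKM, hrcC over mock, was 40.4 in Atg3bp1 and 38.0 in WT, while the fitted log2 fold changes were 3.08 (SE 0.21, adjusted p = 3.39e-06) and 3.01 (SE 0.21, adjusted p = 3.76e-06). JAZ6 FPKM exceeded JAZ5 FPKM 4.02 to 6.23 times in the hrcC libraries and 17.2 to 96.0 times in the mock libraries, a separation that rests on the JAZ5 mock values of 0.0695 to 0.344 FPKM. As log2(FPKM + 1) of the deposited values, without the scaling used for the tests, JAZ6 exceeded JAZ5 by 1.91 to 2.48 in the hrcC libraries. In the mock libraries it did so by 2.04 to 3.17, and the ranges overlap.

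JAZ3 and JAZ9 differed the other way. JAZ9 rose to the highest mean of the family, with 74.8, 47.8 and 59.5 FPKM in Atg3bp1 hrcC, against 4.49, 6.61 and 6.95 FPKM in Atg3bp1 mock, and 78.5, 43.9 and 65.6 FPKM in WT hrcC, against 4.07, 5.38 and 5.44 FPKM in WT mock. The mock values fall within a narrow range, and the hrcC values were lowest in replicate 2 under both labels. The log2 fold change of JAZ9 was 3.17 (SE 0.23, adjusted p = 5.01e-06) in Atg3bp1 and 3.38 (SE 0.23, adjusted p = 2.97e-06) in WT. JAZ3, the gene of the jasmonate-insensitive mutant jai3, changed less, at 13.2, 5.62 and 10.4 FPKM in Atg3bp1 hrcC, against 2.36, 3.06 and 3.505 FPKM in Atg3bp1 mock, and at 11.6, 7.73 and 11.3 FPKM in WT hrcC, against 1.23, 3.40 and 3.90 FPKM in WT mock. Replicate 2 was again the lowest treated library under both labels, and it still exceeded every mock library. The log2 fold change was 1.41 (SE 0.31, adjusted p = 0.0220) in Atg3bp1 and 1.61 (SE 0.31, adjusted p = 0.00985) in WT. These calls were the least stable of the family. In Atg3bp1 the adjusted p of JAZ3 was 0.116 without replicate 1 and 0.107 without replicate 3 of Atg3bp1 hrcC, and 0.0927 without replicate 1 and 0.0830 without replicate 2 of Atg3bp1 mock, and in WT it was just past the threshold without replicate 3 of WT hrcC. JAZ9 FPKM were 5.67 to 8.503 times those of JAZ3 in the hrcC libraries and 1.39 to 3.31 times in the mock libraries. The ranges did not overlap on this scale or as log2(FPKM + 1) of the deposited values.

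**Figure D2:**
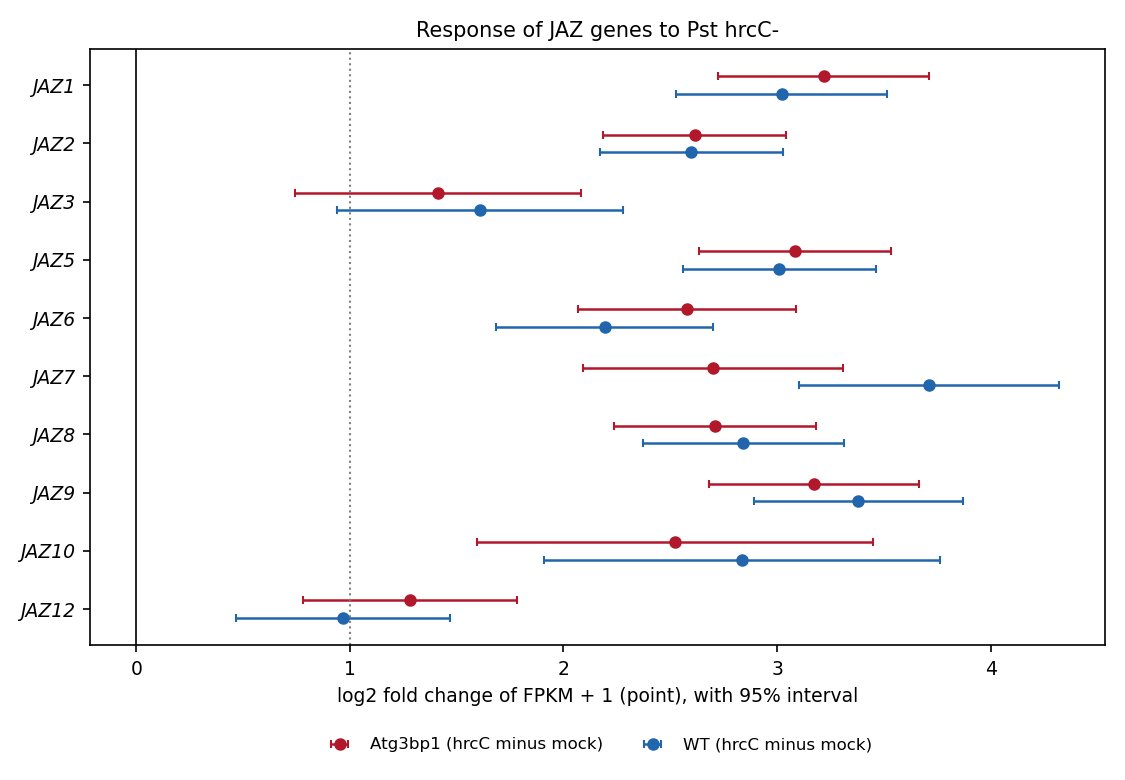
Log2 fold change of FPKM + 1 from mock to Pst hrcC- for each JAZ gene (horizontal axis) in Atg3bp1 (red) and WT (blue), with the 95% interval of the limma fit. The dotted line marks a 2-fold increase, and JAZ12 in WT, at 0.97, is the single point to its left.

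JAZ7 and JAZ8, the short members with a repression motif of their own, were both scarce in mock. JAZ7 stood at 20.03, 16.3 and 17.7 FPKM in Atg3bp1 hrcC, against 1.78, 1.03 and 3.81 FPKM in Atg3bp1 mock, and at 25.5, 18.6 and 22.5 FPKM in WT hrcC, against 0.516, 1.14 and 0.576 FPKM in WT mock. The treated libraries of the 2 labels overlap, and so do the mock libraries, where Atg3bp1 replicate 3 is the highest. Its log2 fold change was 2.70 (SE 0.28, adjusted p = 0.000113) in Atg3bp1 and 3.71 (SE 0.28, adjusted p = 7.34e-06) in WT, which in WT is the largest fitted change among the members, while the ratio of mean FPKM there was 29.9 for JAZ7 and 38.0 for JAZ5. JAZ8 was at 7.68, 4.35 and 6.90 FPKM in Atg3bp1 hrcC and listed at 0, 0.103 and 0.363 FPKM in Atg3bp1 mock. In WT it was at 8.70, 5.83 and 6.83 FPKM in the hrcC group and listed at 0, 0 and 0.272 FPKM in mock. All 6 treated libraries thus held the transcript at a level that no mock library reached, and without counts a listed 0 gives no limit. The fitted log2 fold change was 2.71 (SE 0.22, adjusted p = 1.30e-05) in Atg3bp1 and 2.84 (SE 0.22, adjusted p = 7.71e-06) in WT. JAZ7 FPKM were 2.57 to 3.75 times those of JAZ8 across the treated libraries.

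JAZ10, the member with 7 annotated transcripts, varied most between treated libraries. It was at 11.7, 4.15 and 11.7 FPKM in Atg3bp1 hrcC, against 0.878, 0.672 and 0.594 FPKM in Atg3bp1 mock, and at 9.31, 5.55 and 20.7 FPKM in WT hrcC, against 0.222, 0.753 and 0.801 FPKM in WT mock. The SD of the treated groups was 47.5% of the mean in Atg3bp1 and 66.6% in WT, and replicate 2 was the lowest under both labels. The values are sums over transcripts, so the splice forms are not told apart here. Its log2 fold change was 2.52 (SE 0.43, adjusted p = 0.00458) in Atg3bp1 and 2.84 (SE 0.43, adjusted p = 0.00188) in WT.

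JAZ12, which is known to interact with the ubiquitin ligase KEEP ON GOING, was the most abundant member in all 6 mock libraries and the one that changed least. It was at 33.2, 30.9 and 36.9 FPKM in Atg3bp1 hrcC, against 12.2, 13.4 and 15.3 FPKM in Atg3bp1 mock, and at 47.0, 22.4 and 36.6 FPKM in WT hrcC, against 11.5, 20.7 and 20.04 FPKM in WT mock. In WT the lowest treated library was close to the highest mock library. The log2 fold change was 1.28 (SE 0.23, 95% interval 0.78 to 1.78, adjusted p = 0.00673) in Atg3bp1 and 0.97 (SE 0.23, 95% interval 0.47 to 1.47, adjusted p = 0.0336) in WT, ranks 440 and 750 among the genes tested. In WT it passed both thresholds under 5 of 23 alternatives, among them those without replicate 2 of WT hrcC, where it was 1.19, and without replicate 2 of WT mock, where it was 1.07. In Atg3bp1 it was 1.22 with an adjusted p of 0.213 when replicates 2 and 3 of Atg3bp1 hrcC, rich in AT2G01021, were left out, and 9 members were then called. That group is then a single library, assumed to vary like the others, so the lost call goes with a nearly equal fold and a less precise test.

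The make-up of the JAZ transcript pool also differed between treatments. JAZ12 accounted for 8.97% to 13.8% of the summed JAZ FPKM in the hrcC libraries and for 28.9% to 37.7% in the mock libraries. JAZ9 accounted for 17.6% to 24.4% in the hrcC libraries and 9.70% to 17.0% in the mock libraries, without overlap. The shares of JAZ5 and JAZ8 did not overlap either, JAZ5 with 2.08% to 4.19% in hrcC and 0.149% to 0.818% in mock, and JAZ8 with 1.78% to 2.57% in hrcC and 0% to 0.779% in mock. The shares of JAZ2 (15.1% to 20.2% in hrcC, 13.7% to 17.5% in mock) and JAZ6 (12.9% to 20.2% in hrcC, 10.4% to 26.6% in mock) overlapped between treatments. These shares add to 100 within a library, so they are not independent of each other, and they are given with no test.

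**Figure D3:**
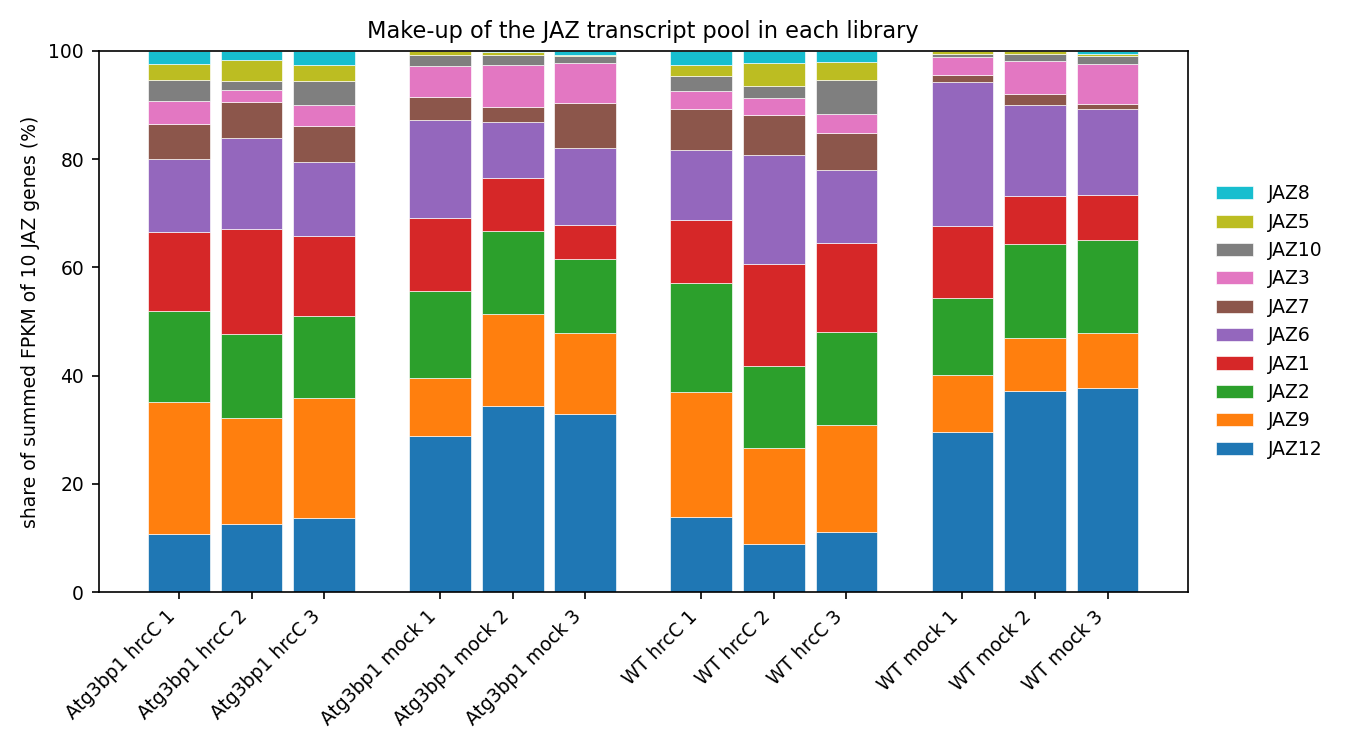
Share of the summed FPKM of the 10 JAZ genes taken by each gene (vertical axis, %) in each of the 12 libraries. The segment of JAZ12 at the base is at most 13.8% in the 6 hrcC libraries and at least 28.9% in the 6 mock libraries.

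In the order of mean levels, JAZ9 came first in both treated groups (60.7 ± 13.5 FPKM in Atg3bp1 hrcC and 62.7 ± 17.5 FPKM in WT hrcC, SD, n = 3 each) and JAZ8 last (6.31 ± 1.74 FPKM in Atg3bp1 hrcC and 7.12 ± 1.46 FPKM in WT hrcC). In Atg3bp1 hrcC, JAZ9 was above JAZ1 in all 3 libraries with just no overlap of their ranges, while JAZ1, JAZ2, JAZ6 and JAZ12 overlapped each with the next, and so did JAZ3, JAZ10 and JAZ5. In WT hrcC the range of each member overlapped that of the next throughout. In mock, JAZ12 stood apart from the second member under both labels, which was JAZ2 in Atg3bp1 (13.6 ± 1.60 against 6.37 ± 0.406 FPKM, SD, n = 3 each) and JAZ6 in WT (17.4 ± 5.10 against 9.39 ± 0.979 FPKM, SD, n = 3 each). JAZ5 and JAZ8 were the lowest 2 in both mock groups, and their ranges overlapped.

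The treated libraries of replicate 2 were low for several members at once. In Atg3bp1 hrcC replicate 2, 1 of 10 members (JAZ1) lay above its group mean on the scaled log2 scale, and in WT hrcC replicate 2, 3 of 10 did (JAZ1, JAZ5 and JAZ6). In replicate 3, 9 of 10 lay above the group mean in Atg3bp1 hrcC, against 10 of 10 in WT hrcC. The members' median deviation in replicate 2 was -0.23 in Atg3bp1 hrcC and -0.17 in WT hrcC. In replicate 3 it was 0.10 in Atg3bp1 hrcC and 0.16 in WT hrcC. The same counts over all genes are not given, so a shift of the whole library cannot be told apart here. AT2G01021 took 20.3% of the FPKM in Atg3bp1 hrcC replicate 2 and 31.6% in replicate 3, and 8.51% in WT hrcC replicate 2 and 7.02% in replicate 3, and its part in these deviations was not tested.

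Between the labels, no member was called. In mock, 0 of 10 members were called by limma, where 168 of the 17158 genes were (0.979%), and 1 member had an unadjusted p of at most 0.05, where 21.1% of all genes did. Whether the replicate numbers mark pairs of mock libraries is not settled. With the number as a block, 82 genes were called higher and 6 lower, in place of 158 and 10, and still 0 of 10 members. JAZ7 was the member with the unadjusted p under 0.05. It averaged 2.21 ± 1.43 FPKM in libraries labelled Atg3bp1 mock and 0.744 ± 0.343 FPKM in those labelled WT mock (SD, n = 3 each), a difference of 0.88 on the log2 scale (95% interval 0.27 to 1.49, limma adjusted p = 0.110). The libraries overlapped, the adjusted p lay between 0.0816 and 0.228 over 23 alternatives, and without replicate 3 of Atg3bp1 mock the difference was 0.51. JAZ6 averaged 6.12 ± 1.84 FPKM in Atg3bp1 mock and 9.39 ± 0.979 FPKM in WT mock (SD, n = 3 each), and its Atg3bp1 libraries lay below the WT libraries without overlap in deposited FPKM, as was so for 17.1% of the genes tested, though not after scaling. The difference was -0.46 (95% interval -0.97 to 0.05, adjusted p = 0.277). The other 8 differences lay between -0.17 (JAZ12) and 0.33 (JAZ9).

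After Pst hrcC-, 0 of 10 members were called between the labels by limma, 2 of the 17158 genes were (0.0117%), and 0 members had an unadjusted p under 0.05, where 5.41% of all genes did. The differences, Atg3bp1 minus WT, ran from -0.14 (JAZ2, 95% interval -0.57 to 0.29) to 0.14 (JAZ12, 95% interval -0.36 to 0.64). The widest interval was that of JAZ10, -1.05 to 0.80. Intervals of the other 9 members stayed within -0.74 and 0.70, so a 2-fold difference lay outside them, whereas smaller differences did not. JAZ6 again had lower deposited FPKM in all 3 Atg3bp1 libraries, at 39.4 ± 2.46 FPKM in Atg3bp1 hrcC, against 46.5 ± 3.40 FPKM in WT hrcC (SD, n = 3 each). This held for 10.6% of the genes tested, and after scaling the libraries overlapped and the difference was -0.08 (95% interval -0.59 to 0.43).

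The responses of the 2 labels were also compared directly, as an interaction of genotype and treatment. By limma, 0 of 10 members and 0 of all genes (0.00%) were called, and 1 member and 755 genes (4.40%) had an unadjusted p under 0.05. That member was JAZ7, whose log2 response was 2.70 in Atg3bp1 and 3.71 in WT, a difference of -1.01 (95% interval -1.87 to -0.15, limma adjusted p = 0.991). The treated levels of JAZ7 differed by -0.13 (95% interval -0.74 to 0.48) and the mock levels by 0.88, as given above. For the other 9 members the difference of responses lay between -0.31 (JAZ10, 95% interval -1.63 to 1.00) and 0.39 (JAZ6, 95% interval -0.33 to 1.10).

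**Figure D4:**
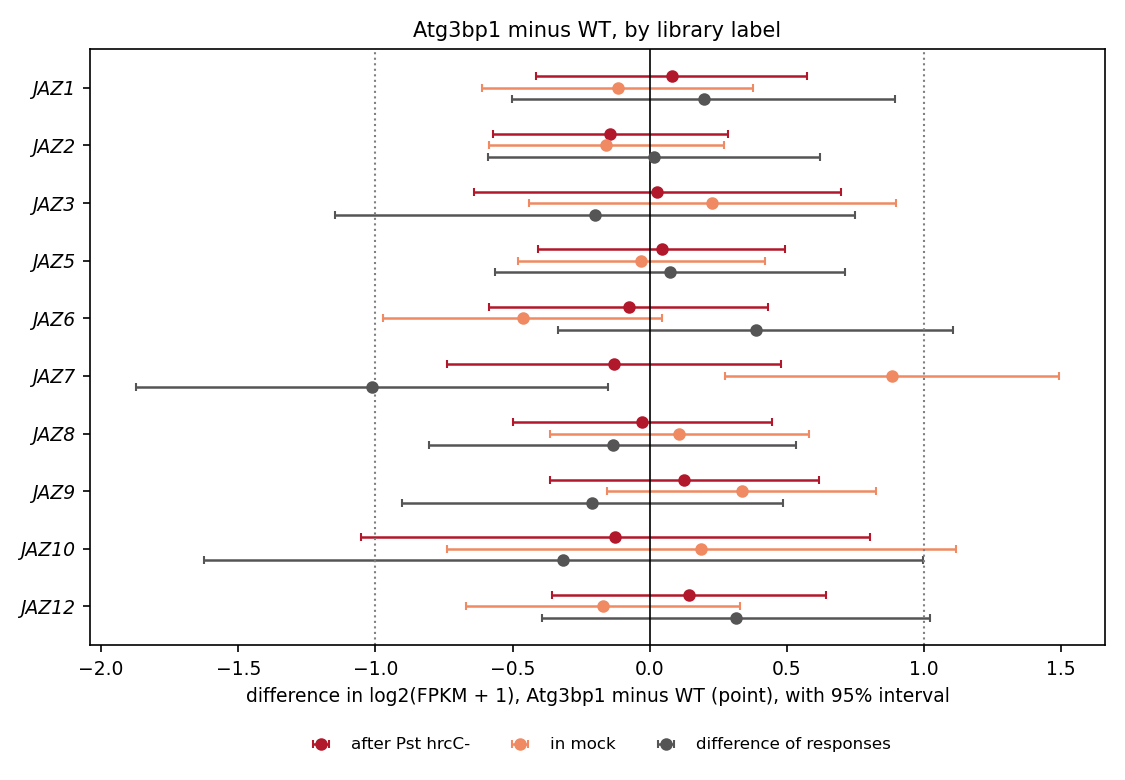
Difference in log2(FPKM + 1) between libraries labelled Atg3bp1 and WT (horizontal axis) for each JAZ gene after Pst hrcC- (red), in mock (orange) and as the difference of the 2 responses (grey), each with its 95% interval. Dotted lines mark 2-fold, and the intervals that leave out 0 are those of JAZ7 in mock and of JAZ7 in the difference of responses.

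The partners of the JAZ proteins were called in smaller number. Of 27 listed genes of the signalling machinery, 21 passed the filter, and 3 were called higher and 0 lower under each label, where 2.57% (Atg3bp1) and 2.87% (WT) of all genes were called higher. The list's median log2 fold change was 0.05 in Atg3bp1 and -0.01 in WT. The genes called were MYC2, the transcription factor that JAZ proteins hold back (2.67, SE 0.29, in Atg3bp1 and 3.05, SE 0.29, in WT on the log2 scale), JAM1, a repressor that competes with MYC2 (2.03, SE 0.31, in Atg3bp1 and 2.099, SE 0.31, in WT), and JAV1, a repressor of defence that is degraded in response to jasmonate (1.10, SE 0.25, in Atg3bp1 and 1.13, SE 0.25, in WT). MYC2 was at 53.7 ± 8.77 FPKM in Atg3bp1 hrcC, against 8.01 ± 2.53 FPKM in Atg3bp1 mock, and at 64.0 ± 17.4 FPKM in WT hrcC, against 6.76 ± 1.59 FPKM in WT mock (SD, n = 3 each). The receptor COI1 had 9.26 ± 0.535 FPKM in Atg3bp1 hrcC, against 9.55 ± 0.733 FPKM in Atg3bp1 mock (SD, n = 3 each). Neither it nor NINJA nor TPL was called under either label. The call of JAV1 was lost in several alternatives, with adjusted p-values up to 0.407. With replicate 1 of both WT groups left out, MYC3 (1.79) and JAM2 (1.201) were called higher in WT too, which makes 5 genes of this list.

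Among the other genes of the TIFY family to which the JAZ genes belong, 7 of 9 listed genes passed the filter and 0 were called by limma in either direction under either label, with 1 gene, TIFY8 in WT, close to the thresholds (log2 fold change -0.95, adjusted p = 0.0687). TIFY8 met both when replicate 2 of WT mock was left out (-1.198, adjusted p = 0.0251) and when the libraries with the highest scaling factors were given a term of their own (-1.21, adjusted p = 0.000607). JAZ11 had log2 fold changes of 0.19 in Atg3bp1 and -0.34 in WT. JAZ4 stayed below the filter, at 0.782 ± 0.289 FPKM in Atg3bp1 hrcC, against 0.284 ± 0.153 FPKM in Atg3bp1 mock, and at 1.02 ± 0.450 FPKM in WT hrcC, against 0.619 ± 0.121 FPKM in WT mock (SD, n = 3 each).

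Genes for the synthesis of jasmonate rose alongside the JAZ genes, 10 of 12 in Atg3bp1 and 8 of 12 in WT, with 0 lower and median log2 fold changes of 2.31 in Atg3bp1 and 1.90 in WT, beside -0.07 in Atg3bp1 and -0.06 in WT over all genes, of which 2.57% and 2.87% were called higher. LOX2, the lipoxygenase that starts the pathway in chloroplasts, changed by 6.34 (SE 0.34) in Atg3bp1 and 5.75 (SE 0.34) in WT, and LOX4 by 2.0003 in Atg3bp1 and 1.82 in WT. AOS, the allene oxide synthase of the next step, changed by 4.11 in Atg3bp1 and 3.68 in WT. The allene oxide cyclases AOC1 (5.08 in Atg3bp1 and 5.04 in WT), AOC2 (5.02 in Atg3bp1 and 4.64 in WT) and AOC4 (1.09 in Atg3bp1 and 1.22 in WT) were called as well, and AOC1, AOC2 and AOC3 are adjacent relatives between which reads may be split or misplaced. OPR3 (3.20 in Atg3bp1 and 3.65 in WT) and OPCL1 (2.61 in Atg3bp1 and 1.99 in WT) act later, in the peroxisome. LOX3 (1.70) and AOC3 (1.68) were called in Atg3bp1, the LOX3 call being lost in 5 fits with 1 library left out. In WT their log2 fold changes were 1.10 and 0.75. Whether these responses differ between the labels was tested by the interaction, in which 0 genes were called. Without replicate 1 of both WT groups, LOX3 (1.89) and AOC3 (1.17) were called in WT as well, and AOC4 lost its call in Atg3bp1 without any 1 replicate of Atg3bp1 hrcC or without replicate 2 or 3 of Atg3bp1 mock, and in WT without replicate 2 or 3 of WT hrcC or replicate 3 of WT mock. With replicates 2 and 3 of Atg3bp1 hrcC left out, which leaves a single library in that group, LOX3 (1.90), AOC3 (1.504), AOC4 (0.88), JAV1 (1.14), CYP94B1 (1.54) and AT2G38240 (4.94) were not called in Atg3bp1, although of these folds those of AOC3 and AOC4 alone were smaller than with all libraries. LOX3 and LOX4 averaged 0.696 and 0.282 FPKM in mock and passed the filter through the treated groups. JAR1, which makes jasmonoyl-isoleucine, was not called, with log2 fold changes of 0.02 in Atg3bp1 and -0.06 in WT. JAZ5 lies 19.8 kb from LOX3 and JAZ6 lies 31.9 kb from LOX4 on chromosome 1.

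Genes that remove or modify the hormone rose as well, 7 of 9 tested (10 listed) in Atg3bp1 and 6 of 9 in WT, with 0 lower, where 2.57% (Atg3bp1) and 2.87% (WT) of all genes were called higher. The medians were 2.45 in Atg3bp1 and 2.82 in WT, beside -0.07 in Atg3bp1 and -0.06 in WT over all genes. JRG21, AT2G38240 and CYP94C1 averaged under 1 FPKM in mock and passed the filter through the treated groups alone, so these counts are given as a description. CYP94B3 averaged 0.937 FPKM over the mock libraries, with 1.31 FPKM in Atg3bp1 mock and 0.566 FPKM in WT mock. JRG21 (AT3G55970), a 2-oxoglutarate-dependent oxygenase that hydroxylates jasmonate, changed by 6.65 (SE 0.37) in Atg3bp1 and 6.21 (SE 0.37) in WT, and AT5G05600, of the same family by annotation, by 4.17 in Atg3bp1 and 4.70 in WT. AT2G38240, another of this family, was called in Atg3bp1 (4.19, SE 0.81) and was at 2.89 in WT with a limma adjusted p of 0.0729. The call of AT2G38240 in Atg3bp1 was lost in 2 fits with 1 library left out. Its WT hrcC libraries were widely spread (14.7 ± 20.9 FPKM, SD, n = 3). Without replicate 1 of both WT groups, AT2G38240 was called in WT as well (3.42, limma adjusted p = 0.0409). CYP94C1 was then called in Atg3bp1 (1.46) and in WT (1.58), and with all libraries it was not called (1.47 and 1.12). With 1 library left out, 6 to 8 genes of this list were called under at least 1 label. The sulfotransferase ST2A (3.26 in Atg3bp1 and 3.13 in WT), the amidohydrolases ILL6 (2.45 in Atg3bp1 and 2.82 in WT) and IAR3 (2.13 in Atg3bp1 and 2.51 in WT), and CYP94B1 (1.44 in Atg3bp1 and 1.71 in WT), a cytochrome P450 that hydroxylates jasmonoyl-isoleucine, were called under both labels.

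**Figure D5:**
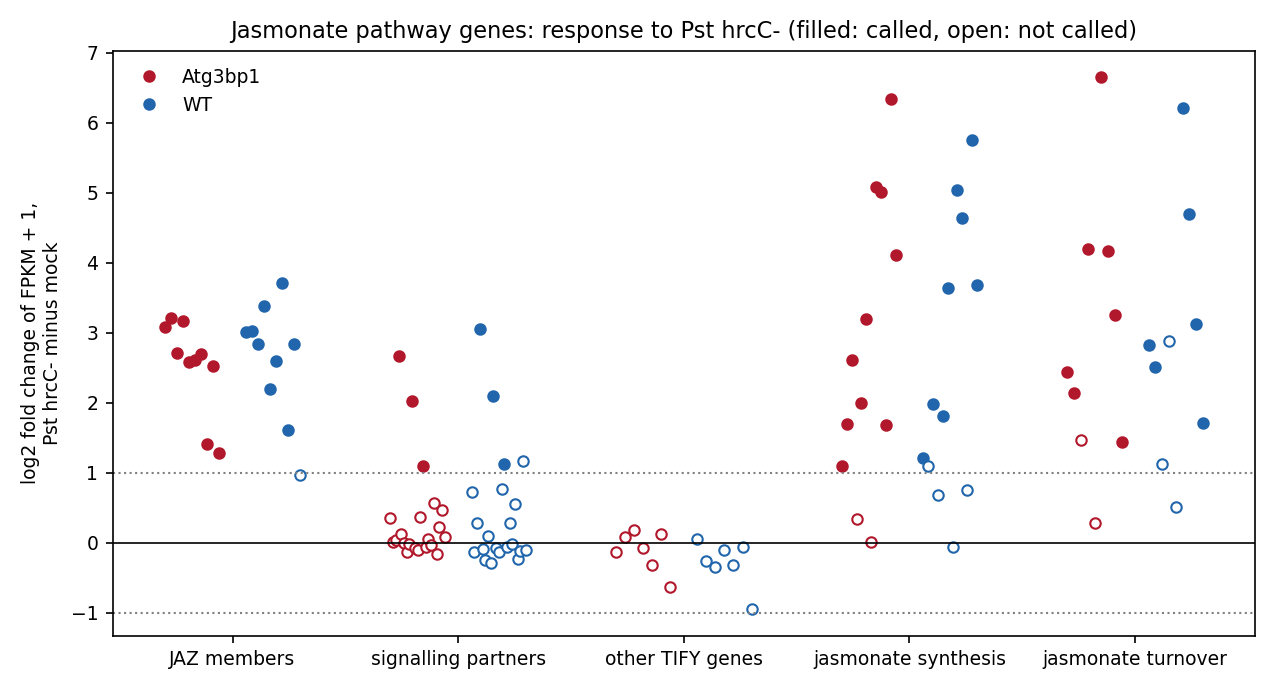
Log2 fold change of FPKM + 1 from mock to Pst hrcC- (vertical axis) of the tested genes in each list, in Atg3bp1 (red) and WT (blue), with filled points for genes called by limma and open points for the rest. The JAZ genes range from 1.28 to 3.22 in Atg3bp1 and from 0.97 to 3.71 in WT, most signalling partners lie near 0, and LOX2 and JRG21 are the highest points.

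The genes outside the members whose values across the 12 libraries were most like the mean of the standardized JAZ values were found by Pearson correlation, given here as a description because all 12 points share the same libraries and 2 treatments. They were JRG21 (0.993), NATA1 (AT2G39030, an acyl-CoA N-acyltransferase, 0.990), AT2G43530 (a knottin family protein, 0.989), AT4G17470 (an alpha/beta-hydrolase, 0.988) and AT1G14250 (a GDA1/CD39 nucleoside phosphatase, 0.988). NATA1 had 488 ± 136 FPKM in Atg3bp1 hrcC, against 0.796 ± 0.421 FPKM in Atg3bp1 mock, and 368 ± 127 FPKM in WT hrcC, against 0.626 ± 0.143 FPKM in WT mock (SD, n = 3 each). Among the members, JAZ8 (0.994) and JAZ2 (0.993) followed the mean of the other 9 most closely, and JAZ12 (0.933) and JAZ3 (0.936) least.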

How the data were processed

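RNA-seq of 12 libraries was analysed. The authors trimmed reads (Trimmomatic), aligned them to TAIR10 with a single alignment kept per read (TopHat) and deposited FPKM per gene and replicate (Cufflinks), that is, values already divided by transcript length and mapped fragments. The use of strand in this step is not given in the sources used here. Columns were matched to samples by name, and groups come from the labels. Replicates are described as independent experiments.

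FPKM were divided by an upper-quartile factor (0.866 to 1.20), genes whose mean fell below 1 FPKM were left out, and log2(FPKM + 1) was fitted with limma 3.58.1 in R 4.3.3 (4 groups, empirical Bayes with trend, Benjamini-Hochberg over 17158 genes). The fit was tested on simulated data. The members and gene lists were chosen with earlier results of these data known. Named genes are the members, list genes called in either response, AtG3BP1 and the 5 most correlated genes. Others (COI1, NINJA, TPL, MYC3, JAM2, TIFY8, JAZ4, JAZ11 and JAR1) were named after their values were seen. Sequences and positions come from RefSeq TAIR10.1, read with Biopython 1.88, which aligned the translated proteins. Deviations from group means of same-numbered mock libraries correlated at 0.375, 0.102 and 0.315. After treatment these were 0.0423, 0.430 and 0.105. Between hrcC and mock, same-numbered libraries correlated at -0.400, -0.424 and 0.00192 in WT and at -0.152, -0.158 and 0.170 in Atg3bp1. Libraries of different numbers were not compared, so whether the numbers mark pairs is not settled.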

Additional observations from a re-analysis of the deposited data

How the results depend on the processing

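Alternatives were other scalings, pseudocounts of 0.1 and 0.5 FPKM, no filter or one at 5 FPKM, no variance trend, a replicate block, a term for the 3 libraries with the highest scaling factors, each pair of groups alone, each library left out, an unadjusted p and no fold threshold. After seeing the data, leaving out replicate 1 of both WT groups, or replicates 2 and 3 of Atg3bp1 hrcC, was added. Over the alternatives other than these added ones, member responses were above 0 in all 228 refits of each label and passed both thresholds in 224 in Atg3bp1 (the others were JAZ3) and 209 in WT. With the 2 Atg3bp1 hrcC libraries left out, which leaves 1 in that group, 9 members were called in Atg3bp1, JAZ12 being lost. The members called numbered 9 to 10 in Atg3bp1 and 8 to 10 in WT with a library left out. The replicate block changed no call of a member, with 10, 9, 0, 0 and 0 members called in the 5 comparisons, though over all genes in mock 82 were then called higher and 6 lower. The counts of other TIFY genes became 1 with the scaling-factor term and ranged from 0 to 1 with a library left out. The count of members called in the interaction became 1 with an unadjusted p (JAZ7), and the signalling partners called became 5 without replicate 1 of both WT groups. The scaling-factor term made the genotype calls in mock 254 higher and 290 lower, against 158 and 10, and no rescaling made them 14 and 7. The cause was not tested.

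No difference between labels that changed sign was called. Without rescaling, which moved the median of all genes by -0.12 in mock and -0.15 after Pst hrcC-, the differences after Pst hrcC- were -0.074 (JAZ1), -0.12 (JAZ3), -0.095 (JAZ5), -0.029 (JAZ9) and -0.011 (JAZ12), and the interaction was -0.022 (JAZ2) and -0.048 (JAZ5). Median-ratio scaling gave 0.0037 for JAZ8 after Pst hrcC-. The scaling-factor term gave 0.057 (JAZ2) and 0.12 (JAZ12) in mock, -0.089 (JAZ1), -0.10 (JAZ5) and 0.024 (JAZ8) after Pst hrcC-, and -0.092 for the JAZ2 interaction. With a library left out, the differences after Pst hrcC- ranged from -0.13 to 0.21 (JAZ1), -0.19 to 0.37 (JAZ3), -0.23 to 0.18 (JAZ5), -0.21 to 0.048 (JAZ6), -0.15 to 0.21 (JAZ8), -0.038 to 0.32 (JAZ9), -0.46 to 0.36 (JAZ10) and -0.077 to 0.28 (JAZ12). In mock they ranged from -0.32 to 0.034 (JAZ1), -0.054 to 0.39 (JAZ3), -0.11 to 0.058 (JAZ5) and -0.031 to 0.21 (JAZ8), and in the interaction from -0.012 to 0.40 (JAZ1), -0.15 to 0.14 (JAZ2), -0.42 to 0.15 (JAZ3), -0.20 to 0.21 (JAZ5), -0.26 to 0.11 (JAZ8) and -0.65 to 0.18 (JAZ10). Depth is unknown, so counting error behind the low mock values of JAZ5, JAZ7, JAZ8 and JAZ10 cannot be given.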

Other observations

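AT3G22275, annotated as a jasmonate ZIM-domain protein and not among the 10 members, stayed below the filter. It averaged 0.184 ± 0.114 FPKM in Atg3bp1 hrcC, against 0.0718 ± 0.0816 FPKM in Atg3bp1 mock, and 0.801 ± 0.299 FPKM in WT hrcC, against 0.0716 ± 0.062 FPKM in WT mock (SD, n = 3 each). In the limma fit with no filter its log2 fold change was 0.15 (adjusted p = 0.609) in Atg3bp1 and 0.70 (adjusted p = 0.00490) in WT, both under the fold threshold, and its highest value in any library was 1.13 FPKM. The pseudocount of 1 FPKM holds these fitted changes down. The ratio of its mean FPKM, hrcC over mock, was 2.57 in Atg3bp1 and 11.2 in WT, over mock values near 0. In WT its hrcC libraries lay above its mock libraries without overlap, and in Atg3bp1 they overlapped. The share of all genes with such a separation in WT is not given. After Pst hrcC-, the difference of Atg3bp1 minus WT was -0.54 (limma adjusted p = 0.411). The Atg3bp1 hrcC libraries lay below the WT hrcC libraries without overlap, as was so for 10.6% of the genes that passed the filter. The interaction was -0.55 (adjusted p = 0.967).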
